A study of Rattus norvegicus with 8 samples.

Results

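The regions described here are 1 kb stretches of rat genome (tiles) whose CpG methylation was low but not absent and that lay away from CpG-dense sequence. A tile was taken when it held 3 to 10 measured CpG dyads (a CpG with both strands counted together), when no tile of 21 or more measured dyads lay within 2 tiles on either side, and when its methylation level, averaged over all 8 libraries, was 10% to 30%. On chromosomes 1 to 20, 3397 tiles met this rule, with 18462 dyads between them. They were 4.37% of the 77785 tiles of the same sparse and isolated kind, and were came from a table of 96631 tiles with at least 3 dyads, chromosome X included. The tiles were thus selected on their measured mean level over the 8 libraries, so the level itself is a description and was not tested. The contrast between tissues was not used by the rule.

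The assay was reduced representation bisulfite sequencing, which cuts DNA with MspI and reads short fragments around CpG-containing cut sites. The 8 libraries were 4 from hippocampus, the cortical structure of memory and spatial learning, and 4 from hypothalamus, the ventral brain region that controls feeding, temperature and hormones. All came from male Sprague Dawley rats that were 2 months old at the start and were fed the omega-3 fatty acid DHA (docosahexaenoic acid) over 6 weeks. The study's chow-fed rats were not analysed here, so by the sample labels every library shares the diet, and tissue was the only contrast. The treatment protocol speaks of fructose and/or DHA without saying which rats had fructose, whereas the label of each sample names DHA only. Neither tissue is a single cell type, and a change of level in one cell type cannot be told apart from a change in the share of cell types. The labels name no animals, so p-values measure only the spread between these libraries.

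In mammalian genomes most CpGs outside islands are highly methylated. Short CpG-poor stretches of low but non-zero methylation are known as low-methylated regions, and many of them are distal regulatory elements such as enhancers, where bound transcription factors go with local loss of methylation. Their methylation is known to differ between cell types more than that of CpG-island promoters.

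The files give positions in build rn5 and no gene names. RefSeq promoter sequences (build GRCr8, 250 bases before to 50 bases after each gene start) were placed on the deposited positions by the pattern of listed cytosines, as described with the processing. Of 33469 promoters 9249 found 1 locus, of which 9062 (97.98%) lay on the chromosome RefSeq gives, and those 9062 served to name genes. Of the low-methylated tiles 174 (5.12%) overlapped a placed promoter, of 169 genes. A gene that was not placed could lie nearer to a tile than the gene named.

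The 4 promoters below belong to named genes, lie in a tile that differed between the tissues by the test described further on, and hold at least 3 measured dyads of that tile. They are among the CpG-poorer promoters on these tiles, with 4 to 7 CpGs in 300 bases against a median of 12, and are shown because several CpGs were measured in each, of which some but not all were called singly. Each is the 250 bases before the gene start in the direction of the gene, from RefSeq build GRCr8, with the CpGs that were measured in all 8 libraries in capitals. The stretches are chr3:28500267-28500516 (plus strand), chr4:64975177-64975426 (minus strand), chr20:12381082-12381331 (minus strand) and chr20:4758424-4758673 (minus strand).
Lrrc26: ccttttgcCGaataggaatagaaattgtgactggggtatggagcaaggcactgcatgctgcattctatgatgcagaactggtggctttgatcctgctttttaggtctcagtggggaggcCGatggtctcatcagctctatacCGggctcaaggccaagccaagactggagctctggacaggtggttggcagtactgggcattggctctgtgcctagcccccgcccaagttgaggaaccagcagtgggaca
Fam180a: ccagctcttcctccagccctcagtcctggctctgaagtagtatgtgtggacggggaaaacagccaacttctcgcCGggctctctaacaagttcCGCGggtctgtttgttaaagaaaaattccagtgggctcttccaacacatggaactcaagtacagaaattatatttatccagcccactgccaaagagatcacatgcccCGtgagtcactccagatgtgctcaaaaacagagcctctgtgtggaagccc
S100b: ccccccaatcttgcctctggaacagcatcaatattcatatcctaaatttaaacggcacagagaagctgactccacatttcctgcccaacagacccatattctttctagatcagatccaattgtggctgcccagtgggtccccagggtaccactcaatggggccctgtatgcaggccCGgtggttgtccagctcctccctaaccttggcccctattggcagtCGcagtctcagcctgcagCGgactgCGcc
RT1-DOa: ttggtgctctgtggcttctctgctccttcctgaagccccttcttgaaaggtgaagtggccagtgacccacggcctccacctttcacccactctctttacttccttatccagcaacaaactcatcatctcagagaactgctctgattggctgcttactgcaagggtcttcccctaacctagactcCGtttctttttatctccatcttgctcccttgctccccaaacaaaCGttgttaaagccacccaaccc

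The libraries held 178178404 to 625653602 calls, with a median of 19 to 49 calls per listed cytosine, and hypothalamus 3 and 4 were the shallowest. In the low-methylated tiles the median number of calls per tile was 132 in hypothalamus 3, 172 in hypothalamus 4 and 326 to 432 in the other 6 libraries. No tile had fewer than 30 calls in any library. The level at CHH cytosines followed by C, where brain DNA carries little methylation and which therefore tracks unconverted cytosine, was 0.310% to 0.412% in hippocampus 1 and 2 and hypothalamus 2 and 3. It was 1.003% to 1.85% in hippocampus 3 and 4 and hypothalamus 1 and 4. This split put 2 libraries of each tissue on each side.

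The median tile level was 17.6%, 16.0%, 19.8% and 19.3% in the hippocampus libraries and 22.6%, 18.6%, 21.5% and 25.1% in the hypothalamus libraries. The ranges overlapped, because hypothalamus 2 lay below hippocampus 3 and 4, and hypothalamus 4 was the highest of all. Here and below, values by library are in the order of libraries 1 to 4. Hippocampus had a mean of medians of 18.2% ± 1.70 and hypothalamus one of 21.96% ± 2.67 (SD over 4 libraries). Of the 3397 tiles 2389 (70.3%) had a mean between 10% and 30% in each tissue, and 852 (25.1%) stayed within those limits in all 8 libraries. Beyond the limits, 557 tiles were above 30% in hypothalamus and 111 in hippocampus, whereas 255 were below 10% in hippocampus and 88 in hypothalamus.

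At the lower limit, the tiles just inside were chr14:102921001-102922000 at 10.01% and chr7:11756001-11757000 at 10.02%, and the tiles just outside were chr7:83387001-83388000 at 9.97% and chr1:215300001-215301000 at 9.96%. At the upper limit chr4:7113001-7114000 and chr8:116925001-116926000 lay inside at 29.99% each. Outside lay chr6:8833001-8834000 at 30.01% and chr16:19686001-19687000 at 30.01%.

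The tiles were spread over all 20 autosomes, and made up 3.01% to 5.38% of the sparse isolated tiles of each. The median distance to a tile of 21 or more dyads was 98 kb, and 346 tiles (10.2%) had one within 10 tiles. The count of measured dyads is only a stand-in for CpG density, since unmeasured CpGs do not count. In 37 of the 174 tiles on a placed promoter the 300-base promoter window itself held at least 21 CpGs, up to 45. For these tiles the description as lying away from CpG-dense sequence did not hold. The promoters on low-methylated tiles had a median of 12 CpGs in 300 bases, between the 21 of all placed promoters and the 7 of all promoters in the table.

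Low-methylated tiles were nearer to placed gene starts than more methylated sparse tiles and farther than unmethylated ones. The median distance to a placed start was 55.0 kb, against 19.2 kb for the 5357 sparse isolated tiles below 10%, 77.4 kb for the 15558 at 30% to 70% and 95.3 kb for the 53473 above 70%. Within 1 kb of a placed start lay 241 low-methylated tiles (7.09%), 32.1% of the tiles below 10%, 2.01% of those at 30% to 70% and 0.892% of those above 70%. These shares count placed promoters only, and placement needs listed cytosines nearby. They are descriptions of 1 set of loci and were not tested.

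The letters of the promoters were searched on both strands for 3 promoter elements. TATAAA, the TATA box core, was found in 13 of the 182 promoters on these tiles (7.14%), in 5.82% of all placed promoters and in 14.2% of the whole table. GGGCGG, the GC box bound by Sp1-type factors, was in 50.5% of them, against 62.4% of placed promoters and 33.1% of the table. CCAAT was in 35.2%, 36.1% and 37.5%. All windows were 300 bases long, and a match is a description of letters, not of binding.

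The tiles were chosen for a low level, so they lie below their surroundings in part by that choice. The mean level was 18.7% ± 1.59 in hippocampus and 22.4% ± 2.63 in hypothalamus in the tiles themselves, 33.2% and 35.7% in measured tiles 1 kb before, and 32.8% and 34.6% in those 1 kb after (SD, n = 4 libraries). The medians of these neighbours, 25.5% before and 24.8% after, were nearer to the median of 20.8% in the tiles themselves, and 28.6% and 30.5% of the neighbours were below 10%. At 2 to 10 kb on either side the means were 46.9% to 59.2%. Between 343 and 721 flanking tiles were measured at each distance, because most neighbours had too few measured CpGs. Where tiles 2 to 5 kb away were measured on both sides, 221 of 496 low-methylated tiles (44.6%) lay at least 20 points below both sides and 78 (15.7%) had both sides below 30%.

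**Figure D1:**
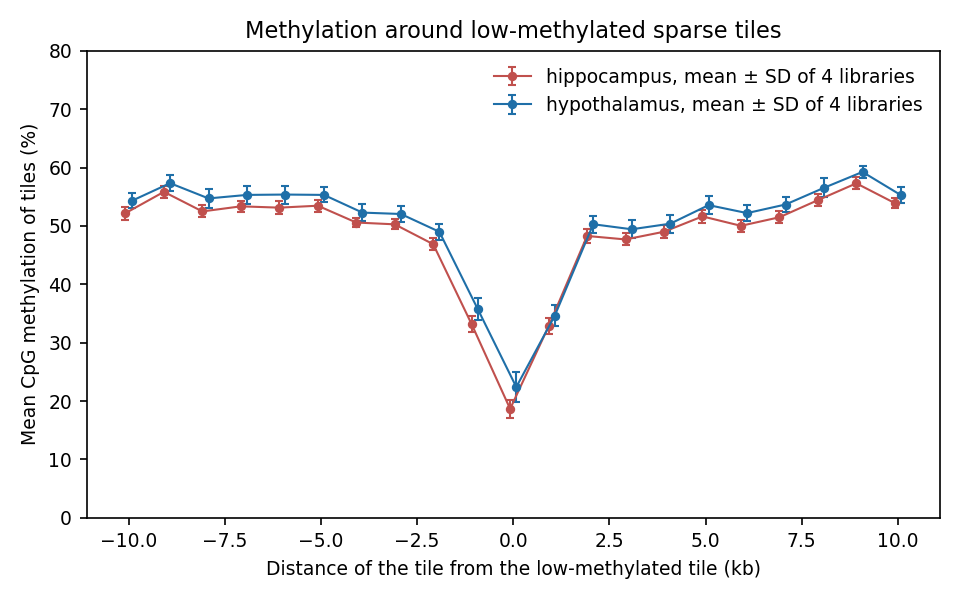
Mean CpG methylation (%) of the low-methylated tiles (distance 0) and of measured tiles up to 10 kb away, for hippocampus and hypothalamus, with bars for the SD of 4 libraries. The level is lowest at distance 0 by the choice of the tiles, is 32.8% to 35.7% at 1 kb and lies between 46.9% and 59.2% farther out.

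Within the tiles single CpGs varied. Of the 18462 dyads 60.5% had a mean level of 10% to 30% themselves, 7.89% were below 5%, 12.5% between 5% and 10%, 16.3% between 30% and 50%, 2.03% between 50% and 70% and 0.737% above 70%. The dyads of a tile spanned a median of 172 bases, and the range between the lowest and the highest dyad had a median of 21.2 points. In 210 tiles (6.18%) a dyad below 5% and a dyad above 50% lay in the same tile, so that the tile's level was an average of unlike sites. Neighbouring dyads 1 to 10 bases apart differed by a median of 4.94 points, those 31 to 100 bases apart by 7.98 points and those more than 300 bases apart by 18.4 points. Close neighbours are read from the same fragments, and each dyad's level enters its tile's mean.

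Methylation in these tiles was mostly higher in hypothalamus. All 3397 tiles were tested, and 535 (15.7%) were called, that is, had an adjusted p below 0.05 and tissue means at least 10 points apart (quasi-binomial model of the calls, dispersion moderated with limma, Benjamini-Hochberg over 75495 tiles). The share called among all tested tiles was 11.7%. Of the called tiles 476 were higher in hypothalamus, which is 14.01% of the 3397 against 10.5% of all tested tiles. Only 59 were higher in hippocampus, 1.74% against 1.25%. The direction split was therefore close to that of all tested tiles.

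The median difference was 3.33 points (hypothalamus minus hippocampus) over the low-methylated tiles and 0.989 points over all tested tiles, and 2449 tiles (72.1%) had the higher mean in hypothalamus, against 60.9% of all tested tiles and 70.8% of sparse isolated tiles at 30% to 70%. Within the 4 libraries of lower level at CHH cytosines followed by C the median difference was 3.06 points, and within the 4 of higher level it was 3.67 points. With only 2 libraries per tissue the same test called 381 and 337 tiles in these sets, 304 and 309 of them higher in hypothalamus. These were 11.2% and 9.92% of the low-methylated tiles, against 9.13% and 6.48% of all tested tiles. With libraries numbered 2 and 3 only, 97 tiles (2.86%, against 3.25% of all tested tiles) were called, so the larger share was not seen there. The median difference in that set was 1.95 points (0.755 over all tested tiles). Without hypothalamus 4, the library of highest level, 418 tiles (12.3%, against 10.3% of all tested tiles) were called, 341 of them higher in hypothalamus, and the median difference was 2.39 points (0.525 over all tested tiles). Without hypothalamus 2, 651 tiles (19.2%, against 11.9% of all tested tiles) were called, and those higher in hippocampus fell from 59 to 33.

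In 760 tiles (22.4%) the 4 hippocampus and the 4 hypothalamus libraries did not overlap, against 19.9% of all tested tiles, and 431 of the 535 called tiles were among them. The median difference was 13.6 points among tiles called higher in hypothalamus and -12.4 points among those called higher in hippocampus. Differences of 20 points or more were called in 38 and 4 tiles, together 1.24% of the tiles against 2.89% of all tested tiles. A low mean level bounds how far apart the tissue means can lie, and so does a high one. Of all tested tiles 47495 were sparse isolated tiles above 70%, a class with median levels of 88.1% in hippocampus and 89.0% in hypothalamus. These shares therefore do not compare like with like, and the reason for the lower share was not tested. With no minimum difference, 801 tiles (23.6%) passed the adjusted p, against 17.5% of all tested tiles. With the dispersion of each tile alone in place of the moderated one, 207 tiles (6.09%) were called against 6.75% of all tested tiles, so the larger share among low-methylated tiles was not seen with that setting.

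**Figure D2:**
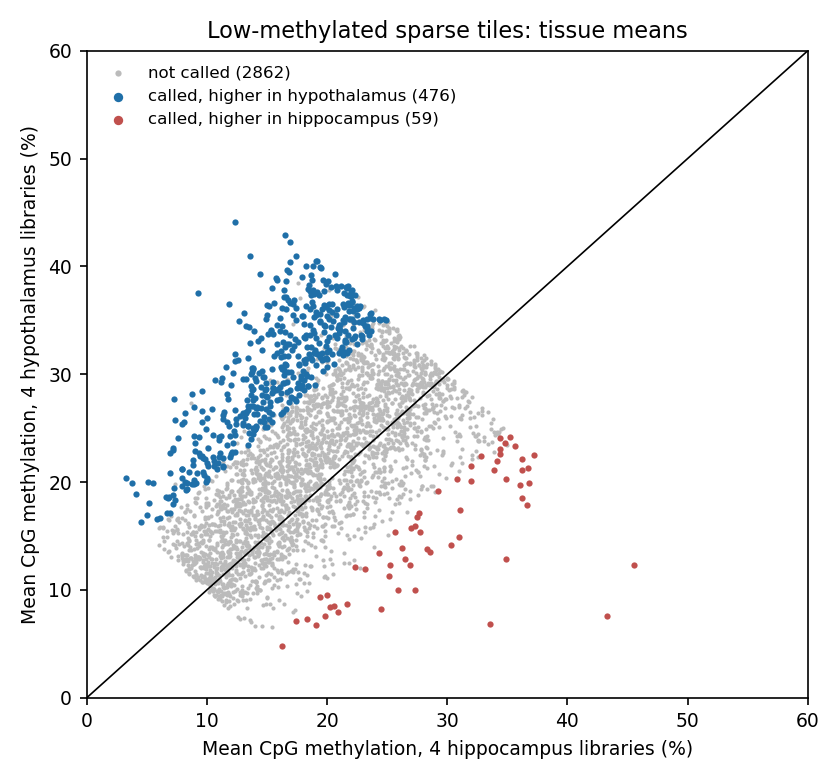
Mean CpG methylation (%) of each low-methylated tile over 4 hippocampus libraries (horizontal axis) and 4 hypothalamus libraries (vertical axis), with the line of equal levels. Of the called tiles 476 lie above the line and 59 below it, and the slanted outer edges of the cloud are set by the choice of tiles with an 8-library mean of 10% to 30%.

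Among the low-methylated tiles the share called rose with the level of the tile. It was 44 of 766 tiles (5.74%) at 10% to 15%, 100 of 808 (12.4%) at 15% to 20%, 160 of 837 (19.1%) at 20% to 25% and 231 of 986 (23.4%) at 25% to 30%. Among sparse isolated tiles at 30% to 70%, 4059 of 15558 (26.1%) were called, with a median difference of 4.39 points. The rise did not go on above 70%, where 3441 of 47495 tested sparse isolated tiles (7.24%) were called, with a median difference of 0.494 points. In the 281 sparse tiles of 10% to 30% that had a dense tile nearby, 25 (8.90%) were called and the median difference was 1.62 points. A call needs 10 points at every level, which is a larger relative change in a tile of low level. The part of the call rule in the rise was not tested. The difference between these classes was not tested.

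Single dyads were tested in the same way. Of the 17000 dyads of these tiles that could be tested (mean level 5% to 95%), 1967 (11.6%) were called by the same rule, against 9.79% of all tested dyads. When each dyad kept its own dispersion 0 dyads were called, here and among all tested dyads. Every dyad call given here therefore rests on the dispersion moderated with limma. With its own dispersion for each dyad, 2632 of the 17000 were at an unadjusted p below 0.05 and 10 points, and the share over all tested dyads was not counted. Of the 1967 called dyads 1696 were higher in hypothalamus and 271 in hippocampus. Among all tested dyads 8.56% and 1.23% were called in these directions. In 450 of the 476 tiles called higher in hypothalamus every dyad was higher there, and 333 held at least 2 called dyads. In 52 of the 59 tiles called higher in hippocampus every dyad was higher in hippocampus, and 43 held at least 2 called dyads. In 33 and 5 called tiles no single dyad was called. A tile is called from the sum of its dyads, so this agreement is a description and no support for the calls.

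Among called tiles without overlap between the tissues, the 3 with the largest differences toward hippocampus had Dmrt2, Neurog2 and Dmrta2 as the nearest placed starts. For these tiles, and for those toward hypothalamus below, the lack of overlap is part of that choice. The first was chr1:250841001-250842000, 79.7 kb from the placed start of Dmrt2, with Dmrt1 and Dmrt3 between its placed neighbours in GRCr8. These genes encode DM-domain transcription factors. Its level was 46.5%, 47.5%, 37.9% and 41.2% in the hippocampus libraries and 10.7%, 4.74%, 7.89% and 6.90% in the hypothalamus libraries. Every hippocampus library was above every hypothalamus library by more than 20 points, and the difference was -35.7 points (SE 2.58, adjusted p = 4.46e-06). All 3 dyads of the tile were called, at -39.9, -34.3 and -31.7 points.

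The next, chr2:251302001-251303000, lay 4.89 kb from the start of Neurog2, a proneural basic helix-loop-helix factor that drives neuronal differentiation. It was methylated at 49.5%, 44.0%, 39.0% and 49.8% in the hippocampus libraries and at 14.9%, 7.95%, 9.36% and 17.1% in the hypothalamus libraries. The groups were far apart, and the difference was -33.2 points (SE 3.38, adjusted p = 8.08e-06). All 9 of its dyads were called, with differences from -18.9 to -44.5 points, and one of them was at 0.893% in hypothalamus against 19.8% in hippocampus.

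Near Dmrta2, a DM-domain factor needed for the dorsal telencephalon from which the hippocampus forms, chr5:133593001-133594000 lay 7.21 kb from the start. Its level was 30.5%, 30.6%, 34.8% and 38.2% in the hippocampus libraries and 4.97%, 8.21%, 6.61% and 7.59% in the hypothalamus libraries. The lowest hippocampus library was more than 20 points above the highest hypothalamus library, and the difference was -26.7 points (SE 1.98, adjusted p = 3.72e-06).

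The other 5 of the 8 largest differences in this direction, among called tiles without overlap, were -18.8 to -16.3 points. They were chr5:162289001-162290000 (between the placed starts of Pax7 and LOC134479044), chr8:98248001-98249000, chr14:44427001-44428000 at the start of Klb, chr19:10422001-10423000 (19.8 kb from Adgrg1, an adhesion receptor of cortical development) and chr4:149659001-149660000 (6.89 kb from Znrf2, a ubiquitin ligase). The chr8 tile was the last of 4 low-methylated tiles within chr8:98243001-98249000. Their differences were -4.17, -13.6, -12.9 and -17.4 points, the last 3 called, and the zinc-finger genes Zic1 and Zic4 lie in GRCr8 between the placed starts on either side, which are 1103 kb and 1117 kb away. This run was picked out after its values were seen.

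Of the 8 called tiles without overlap that had the largest differences toward hypothalamus, none lay nearer than 2.45 kb to a placed start. At chr1:204695001-204696000, between the placed starts of Xpo6 (121.6 kb) and Lat (57.2 kb), the level was 7.97%, 7.16%, 20.2% and 13.95% in the hippocampus libraries and 39.0%, 44.8%, 39.6% and 53.2% in the hypothalamus libraries. The groups did not overlap, and the difference was 31.8 points (SE 4.47, adjusted p = 4.23e-05). All 4 dyads were called, at 25.5 to 36.2 points.

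At chr1:248196001-248197000, 2.45 kb from the start of LOC134485213, the level was 5.05%, 6.05%, 13.5% and 12.5% in the hippocampus libraries and 32.6%, 36.0%, 32.9% and 48.6% in the hypothalamus libraries. Klf9, a Krüppel-like factor induced by thyroid hormone, lies between its placed neighbours in GRCr8. The tissues were again separate, by 28.3 points (SE 4.35, adjusted p = 3.72e-05), and all 4 dyads were called.

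The third, chr5:157645001-157646000, lay 45.9 kb from Grhl3, a grainyhead-like transcription factor. It differed by 27.4 points (SE 1.84, adjusted p = 1.03e-05), from 13.6% ± 2.80 in hippocampus to 40.9% ± 2.39 in hypothalamus. Of its 8 dyads 7 were called. The other 5 were chr1:281561001-281562000, chr1:288072001-288073000, chr5:102622001-102623000, chr1:281985001-281986000 and chr19:67267001-67268000, at 23.6 to 26.4 points. Between the placed starts around the chr1:288072001 tile lies Emx2, a homeobox gene of the developing hippocampus, and around the chr5:102622001 tile Nfib, a nuclear factor I gene. Some of these intervals hold further genes, 1 other (Rab11fip2) beside Emx2 and several beside Nfib and Klf9, as does that of Zic1 and Zic4 (Plscr5, Plscr1, Plscr2 and Plscr1l1), and the genes named were picked from them. Intervals around other tiles described above hold genes too. Examples are Sbk1 at chr1:204695001, Elavl4 at chr5:133593001, and Ncmap, Rcan3, Nipal3 and Stpg1 at chr5:157645001. The call of none of these 16 tiles was lost when any single library was left out, but with the dispersion of each tile alone those of chr5:162289001-162290000 (adjusted p = 0.0939) and chr8:98248001-98249000 (adjusted p = 0.0592) were lost.

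**Figure D3:**
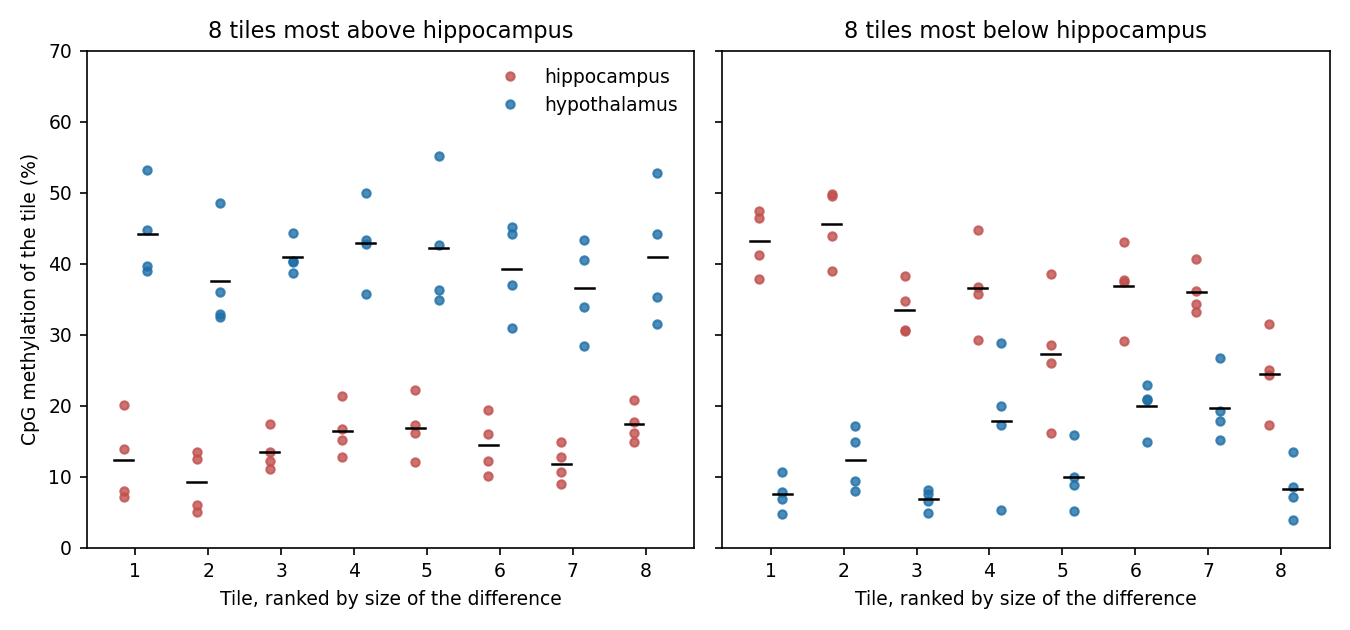
CpG methylation (%) in each library of the 8 called, non-overlapping tiles with the largest difference toward hypothalamus (left) and toward hippocampus (right), ordered by size, with dots for libraries and short lines for the mean of 4. The first tile on the left rises from 12.3% to 44.2% and the first on the right falls from 43.3% to 7.55%.

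Gene starts give a name to the called tiles nearby. Within 5 kb of a placed start lay 495 low-methylated tiles, with a median difference of 1.75 points, and 49 of them (9.90%) were called, 35 higher in hypothalamus and 14 in hippocampus. This share is below the 11.7% of all tested tiles, so the genes named next are examples and not a sign that tiles near gene starts differed more often. With gene models named only as LOC left out, 22 named genes had such a tile higher in hypothalamus and 10 had one higher in hippocampus. Of these named genes 1 is not reported here. The limit of 5 kb was chosen after the values were seen. When each tile kept its own dispersion, the calls near Neurog2, Klb, Gtf2ird1, Gabrb2, Ackr3, Faxdc2, Fam180a, Nkx2-8, Lrrc26, Osbpl2, Gbx2 and Pax2 were kept, and those near the other named genes were lost. With limma on logit levels the calls near Zfp36l2, RT1-DOa, Nhsl3, Irf2bpl, C8h11orf65 and Prdm12 were lost (adjusted p = 0.0512 to 0.0846), and with unweighted means of dyad levels that near C8h11orf65 fell below 10 points (8.19).

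Nkx2-8, Dbx1, Pax2, Gbx2 and Prdm12, which encode transcription factors, had a nearby tile higher in hypothalamus. Next to Nkx2-8, an NK-family homeobox gene (under 1 kb away), the level was 5.27%, 4.12%, 8.51% and 9.98% in the hippocampus libraries and 18.01%, 18.97%, 27.05% and 26.6% in the hypothalamus libraries, a separation of 15.7 points (SE 2.78, adjusted p = 0.000214). The tiles near Dbx1 (a homeobox gene of progenitor cells, 3.25 kb), Pax2 (a paired box gene, 4.24 kb), Gbx2 (a homeobox gene of the midbrain-hindbrain border, 3.08 kb) and Prdm12 (a zinc-finger factor of sensory neurons, 2.85 kb) were higher by 12.6, 10.7, 10.6 and 12.3 points. These calls were lost without hypothalamus 1 at Dbx1 (adjusted p = 0.0783), without hypothalamus 4 at Pax2 (8.53 points) and without hippocampus 1, hypothalamus 1 or hypothalamus 2 at Gbx2 (8.86 to 9.64 points). At Prdm12 the call was lost without hippocampus 1, hippocampus 2 or hypothalamus 4, and the difference without hypothalamus 4 was 6.37 points, against 12.3 with it.

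Near 6 other genes the call was kept when each library was left out in turn, although at Ctsd, Slc6a16 and Mex3a it was lost when each tile kept its own dispersion. The tile 2.65 kb from Ackr3, a decoy receptor for the chemokine CXCL12, was at 21.2%, 24.4%, 21.9% and 23.2% in the hippocampus libraries and 36.2%, 32.4%, 35.7% and 40.6% in the hypothalamus libraries. The groups did not overlap, and the means differed by 13.5 points (SE 1.83, adjusted p = 0.0013). Near Osbpl2, an oxysterol-binding protein gene, the difference was 20.1 points (SE 2.52). The differences near Ctsd (the lysosomal protease cathepsin D), Slc6a16, Faxdc2 and Mex3a (an RNA-binding protein gene) were 13.01, 12.9, 13.8 and 16.0 points.

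The calls near 7 further genes depended on 1 or more libraries. Near Gdi2 (a Rab regulator) the difference was 16.0 points and the call was lost without hypothalamus 1, as was that near Cbs (cystathionine beta-synthase), at 11.1 points. Near Ttyh3, S1pr1 (a receptor for sphingosine 1-phosphate), Tubb6 (a beta-tubulin), Irf2bpl and C8h11orf65 it was 13.6, 11.3, 10.6, 11.8 and 12.1 points. At these 5 the call was lost without any one of at least 3 of the 8 libraries, and without hypothalamus 4 the differences at Irf2bpl and C8h11orf65 were 6.71 and 7.84 points. At C8h11orf65 the call was also lost with a block for the libraries numbered 1 and 4 (adjusted p = 0.0624).

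In the opposite direction, Gabrb2 and Gabrg3, which encode GABA-A receptor subunits, had nearby tiles higher in hippocampus. The tile 1.59 kb from Gabrb2, which encodes the beta-2 subunit, was at 20.3%, 19.8%, 21.5% and 20.7% in the hippocampus libraries and at 5.80%, 6.54%, 11.3% and 10.4% in the hypothalamus libraries. The hippocampus libraries lay within 2 points of each other and above all hypothalamus libraries, and the difference was -12.1 points (SE 1.41, adjusted p = 0.000103). The tile 0.747 kb from Gabrg3, the gamma-3 subunit gene, differed by -10.3 points (SE 2.84, adjusted p = 0.0202), and its call was lost without hippocampus 3, hypothalamus 2 or hypothalamus 3.

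At the start of Klb, which encodes beta-Klotho, the co-receptor of fibroblast growth factor 21, the tile was at 43.1%, 29.1%, 37.7% and 37.4% in the hippocampus libraries. In the hypothalamus libraries it was at 20.96%, 20.9%, 14.9% and 22.9%. All hippocampus libraries were higher, and the difference was -16.9 points (SE 3.37, adjusted p = 0.00196). Near Gtf2ird1, a TFII-I family transcription factor gene, the difference was -12.3 points (SE 3.39, adjusted p = 0.00491), with hypothalamus 4 at 31.1% and hippocampus 1 at 30.5%.

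Other genes with tiles higher in hippocampus had calls that depended on single libraries. Near Zfp36l2 (an mRNA-decay factor) the difference was -22.1 points, but the libraries ranged from 18.5% to 50% in hippocampus and from 0% to 29.4% in hypothalamus, and leaving out any of 6 libraries ended the call (adjusted p = 0.0522 to 0.226), as did a block for the libraries numbered 1 and 4 (adjusted p = 0.0594). The call at Nhsl3 (-11.9 points) was lost without hypothalamus 2, that at Arhgef40 (-10.3 points) without any of 4 libraries, hippocampus 2 and 4 and hypothalamus 2 and 3, and that at Fignl1 (-10.3 points) without hippocampus 1 or 4 or hypothalamus 1 or 3. RT1-DOa is described with its promoter.

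Of the 174 tiles on a placed promoter 126 had a measured dyad inside the promoter window, and in the rest only other bases of the tile were measured. Of the 174 tiles 14 (8.05%) were called, 11 higher in hypothalamus and 3 in hippocampus, a share below the 11.7% of all tested tiles. The other 3223 tiles had 521 called (16.2%). The median differences were 1.28 and 3.47 points, and 64.4% and 72.5% of tiles were higher in hypothalamus.

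The promoter of Lrrc26, an auxiliary subunit of large-conductance potassium channels, lay in chr3:2487001-2488000, a tile at 15.4%, 15.2%, 22.2% and 16.5% in the hippocampus libraries and 31.9%, 31.7%, 36.7% and 32.8% in the hypothalamus libraries. No library overlapped the other tissue, and the difference was 16.0 points (SE 2.02, adjusted p = 0.000553). Positions are counted from the gene start, with -1 the base before it. The 3 CpGs in capitals in its sequence, at -242, -131 and -108, differed by 15.2, 16.5 and 7.38 points, and the first 2 were called.

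The promoter of Fam180a lay in chr4:62583001-62584000, at 24.0%, 20.8%, 21.8% and 20.2% in the hippocampus libraries and 40.4%, 30.1%, 38.3% and 36.8% in the hypothalamus libraries. The tissues were separate by 14.7 points (SE 2.38, adjusted p = 0.0014). Its 5 dyads were at -176, -157, -155, -50 and -1, the last across the gene start and therefore not in capitals. The largest difference was at -50, from 27.7% ± 7.63 in hippocampus to 52.6% ± 9.30 in hypothalamus (24.9 points, adjusted p = 0.00204).

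S100b encodes a calcium-binding protein known as an astrocyte marker. Its promoter lay in chr20:15296001-15297000, where the level was 8.83%, 7.40%, 8.28% and 11.5% in the hippocampus libraries and 20.6%, 10.3%, 33.3% and 30.2% in the hypothalamus libraries. Hypothalamus 2 was within the range of the hippocampus libraries and the other 3 were above it. The difference was 14.6 points (SE 5.26, adjusted p = 0.0123), and the call was lost without hypothalamus 4 (12.4 points, adjusted p = 0.0716). Its 4 dyads, at -74, -29, -11 and -4, differed by 8.20, 14.5, 18.6 and 16.5 points, the last 3 called.

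RT1-DOa encodes the alpha chain of the class II histocompatibility molecule DO, which acts in B cells. Its promoter tile, chr20:5968001-5969000, was at 22.1%, 28.6%, 45.5% and 28.0% in the hippocampus libraries and 16.3%, 11.9%, 16.5% and 25% in the hypothalamus libraries. Hippocampus 1 was below hypothalamus 4, and the difference was -13.6 points (SE 5.73, adjusted p = 0.0323). The call was lost without hippocampus 3 (-8.83 points, adjusted p = 0.0596) and without hypothalamus 1, 2 or 3. The difference was -29.0 points at -66 and -1.81 points at -1.

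**Figure D4:**
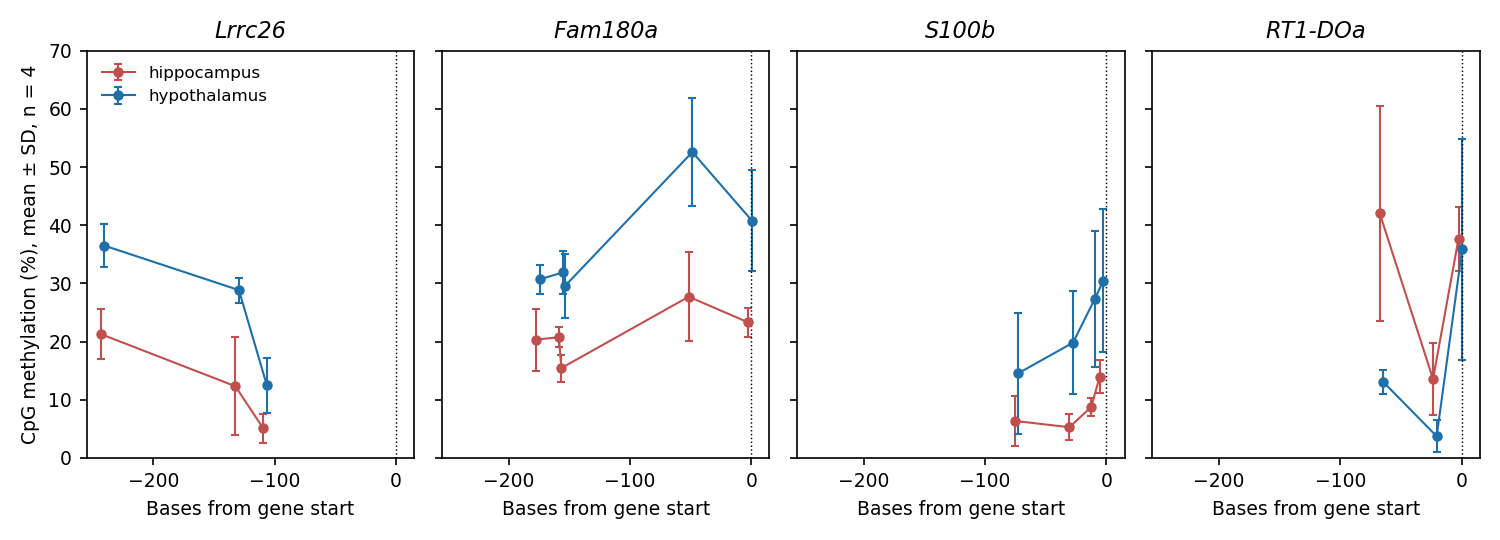
Methylation (%) of the measured CpGs before 4 gene starts (position in bases, drawn with a small sideways offset between tissues), with the mean and SD of 4 libraries. Hypothalamus is above hippocampus at every CpG of Lrrc26, Fam180a and S100b, and below it at -66 and -22 of RT1-DOa.

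Several tiles on the promoters of other genes were low in both tissues without a call. These examples were chosen after their values were seen, and the values are of whole tiles: inside the promoter window lay only 2 of the 6 dyads at Drd2 and at Mc3r, 4 of 6 at Tph1, 3 of 9 at Cd38 and 1 of 4 at Tnfrsf1a, whereas at Gpm6a all 5 did. The tile at the start of Drd2, the dopamine D2 receptor gene, was at 7.05% to 13.99% in hippocampus and 12.1% to 14.4% in hypothalamus. The tile at Mc3r, a melanocortin receptor gene of the hypothalamic control of feeding, was at 11.6% ± 2.00 and 10.3% ± 1.92. The tile at Tph1, a serotonin synthesis gene, was at 12.9% ± 1.44 and 10.01% ± 3.11, and that at Gpm6a, a neuronal membrane glycoprotein gene, at 9.77% ± 0.906 and 13.1% ± 2.06 (hippocampus and hypothalamus, SD, n = 4). The tiles at Cd38, a NAD-consuming enzyme gene, and Tnfrsf1a, a tumour necrosis factor receptor gene, passed the adjusted p (0.0256 and 0.008) with differences of 8.28 and 8.41 points, below the limit of 10.

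Most low-methylated tiles stood alone. Of the 3397 tiles 2929 had no other within 5 kb, and 468 (13.8%) lay in runs of 2 to 5. The longest run, 5 tiles in chr2:220755001-220763000, had Wars2 114.7 kb and Spag17 861.1 kb away as the nearest placed starts, with the T-box gene Tbx15 between them in GRCr8. Its tiles had means of 15.6%, 10.4%, 15.2%, 13.8% and 22.6%. None was called, although all 5 were lower in hypothalamus, with differences of -7.39 to -0.0502 points (adjusted p = 0.0572 to 0.764).

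The 3 deepest tiles with means less than 2 points apart were chr3:2162001-2163000, chr13:42159001-42160000 and chr12:43676001-43677000, with at least 527 calls in every library. Their differences were 0.993, 0.117 and 1.31 points, with SEs of 4.68, 1.61 and 1.93. The chr3 tile joined unlike sites, since 4 of its 9 dyads were below 2% in both tissues while 3 were at 29.9% to 34.7%.

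Single libraries stood apart at some tiles. The 3 tiles with the widest range within a tissue were chr11:34900001-34901000, chr1:215034001-215035000 and chr2:254557001-254558000. In each the high library was hypothalamus 4, at 76.9%, 71.2% and 60%, while the other 7 libraries were between 9.52% and 29.1%. The first lies in the interval that holds the oligodendrocyte genes Olig1 and Olig2 in GRCr8, and the third in that of the Wnt pathway factor Lef1. Hypothalamus 4 was more than 10 points above the other 3 hypothalamus libraries at 249 of the 3397 tiles, and each other library stood above its tissue in this way at 6 to 71. Hypothalamus 2 was more than 10 points below its tissue at 166. The part of these libraries' depth in this was not tested.

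Methylation outside CpGs was also measured in the low-methylated tiles. In the adult brain, neurons are known to carry methylation at CA. The level at CHH cytosines followed by A was 1.09%, 0.858%, 3.76% and 3.97% in the hippocampus libraries and 2.19%, 1.03%, 1.36% and 2.32% in the hypothalamus libraries, over 29192 positions. Hippocampus 3 and 4, the libraries with the highest level at CHH cytosines followed by C, were the highest, and the groups overlapped. The difference was -0.694 points, and -0.317 points after the level at CHH cytosines followed by C in the same tiles was subtracted. It was -0.177 points without hippocampus 4, -0.248 points without hippocampus 3, -1.14 points without hippocampus 1 and -1.21 points without hippocampus 2.

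The sign turned with another baseline. In the sparse isolated tiles below 10%, CHH cytosines followed by A were at 3.23% and 3.41% in hippocampus 3 and 4. They were at 0.282% to 1.22% in the other libraries. Those followed by C were at 1.65% and 1.74% in hippocampus 3 and 4, and at 0.256% to 0.969% in the other libraries. After the CA level of the sparse isolated tiles below 10% was subtracted, the low-methylated tiles were at 0.632, 0.526, 0.531 and 0.566 points in the hippocampus libraries and 0.973, 0.750, 0.936 and 1.14 points in the hypothalamus libraries. On that scale every hypothalamus library was above every hippocampus library, by 0.386 points in the mean. This baseline was chosen after the data were seen, so no p is given. The tiles at 30% to 70% treated in the same way were at 1.56 ± 0.148 points in hippocampus and 2.15 ± 0.268 in hypothalamus.

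**Figure D5:**
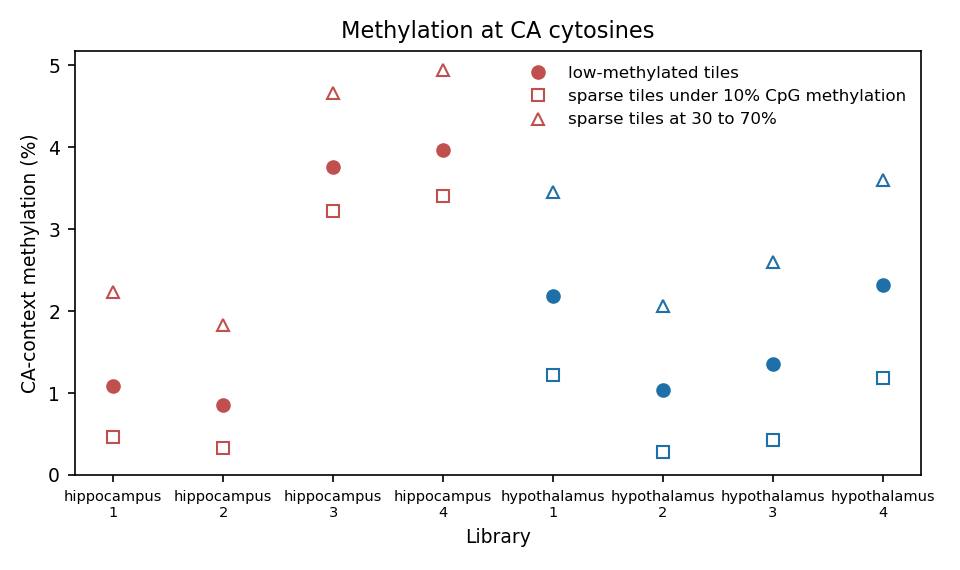
Methylation (%) at CHH cytosines followed by A in each library, for the low-methylated tiles (filled), sparse tiles below 10% CpG methylation (squares) and sparse tiles at 30% to 70% (triangles). In every library the low-methylated tiles lie between the other classes, and hippocampus 3 and 4 are the highest in all 3.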

How the data were processed

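Reduced representation bisulfite libraries of 4 hippocampus and 4 hypothalamus samples were used. Per the submitters' processing notes reads were handled with Bowtie and build rn5; for the methylation caller, trimming and duplicate removal the sources used here name nothing. For each cytosine the authors deposited counts of methylated and of all calls, with at least 10 calls at every listed position, and a fraction; only the deposited counts were used.

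Calls of both strands of a CpG were summed into dyads with at least 10 calls in all 8 libraries, and dyads into 1 kb tiles. Every tile with at least 3 dyads and a mean level of 5% to 95% (75495 tiles) entered a quasi-binomial logistic model with tissue as its term. Pearson dispersion was moderated by limma 3.58.1 (squeezeVar with a trend) and kept at 1 or above, followed by an F test and Benjamini-Hochberg adjustment over all tiles; dyads (433557) were treated alike. A call needed an adjusted p below 0.05 and 10 points. The code was tested on simulated data.

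RefSeq promoters (GRCr8) were placed on rn5 where a run of 10 listed cytosines and their next bases matched, at least 15 listed positions were compared, at least 97% agreed and 1 locus resulted. This step, the 5 kb limit and the promoter examples were chosen after the data were seen. The members and lists were chosen with earlier results of these data known. Tiles named by rule were the 8 largest non-overlapping calls in each direction, the longest run with gaps of at most 5 kb, the 3 deepest uncalled tiles under 2 points, the 3 widest within a tissue and those at the limits. A check of CpG islands or gene bodies needs an rn5 genome and was not made. Alternatives were another dispersion, limma on logits with 0.5 added, a replicate block, left-out libraries, minimum differences of 5 and 20 points, 20 calls per dyad and a grid shifted by 500 bases. Depth limits precision, and calls need not be independent molecules.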

Additional observations from a re-analysis of the deposited data

Results flagged for a closer look

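Among 148 groups of 4 libraries examined (the named tiles and the summary levels, 2 tissues each), 4 held 1 library apart from the other 3 by Dixon's 95% criterion for 4 values. Chance gives about 1 in 20 such groups. At chr11:34900001-34901000 hypothalamus 4 was at 76.9% and the other 3 hypothalamus libraries at 17.9% to 21.6%, and at chr1:215034001-215035000 hypothalamus 4 was at 71.2% and the others at 20.5% to 25.7%. These tiles were named for their wide range within a tissue, so their place here follows in part from that choice. At the tile chr1:222447001-222448000 near Ctsd, hypothalamus 4 was at 28.4%, and the other 3 hypothalamus libraries were at 20.8% to 21.9%. At the promoter tile of Gpm6a, chr16:39493001-39494000, hippocampus 2 was at 8.41%, and the other 3 hippocampus libraries were all at 10.2%.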

How the results depend on the processing

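Tiles called, higher in hypothalamus and higher in hippocampus numbered 207, 186 and 21 with the dispersion of each tile alone (6.09% against 6.75% of all tested tiles). With a minimum difference of 20 points they were 42, 38 and 4 (1.24% against 2.89%), and with 5 points 793, 665 and 128 (23.3% against 16.6%). With 1 library left out the 3 counts ranged over 418 to 651, 341 to 618 and 33 to 77, and the share called was 12.3% to 19.2% against 9.95% to 12.7% of all tested tiles. In the added sets of 4 libraries, 304 (lower level at CHH cytosines followed by C) and 309 (higher level) were higher in hypothalamus, and the latter set called 337 in all and 28 higher in hippocampus. In the added set of libraries numbered 2 and 3 they were 97, 70 and 27 (2.86% against 3.25% of all tested tiles), and fewer libraries were fitted in all 3 sets. The median difference stayed positive, at 1.95 to 4.27 points, in all settings, the lowest in the last set. A tile mean of 15% to 25% left 1645 tiles. The dispersion of each dyad alone called 0 dyads, with 2632 of the 17000 tested dyads of these tiles at an unadjusted p below 0.05 and 10 points. A minimum of 20 points called 545 of the 17000. For the 2632 and the 545 the share over all tested dyads was not counted, and the cause of the 0 calls was not tested. The CA difference reversed to 0.386 points against the tiles below 10%. By the hypothalamus mean alone 55.5% of dyads were at 10% to 30%. Of 63 called tiles examined (named tiles, and called tiles within 5 kb of a placed start, models named LOC included), 21 lost the call without some library, 29 with their own dispersion, 8 with limma on logits and 3 with unweighted means of dyad levels. None reversed.

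Same-numbered libraries correlated at 0.169, 0.0678, 0.0876 and 0.172 in their deviations for numbers 1 to 4. Differently numbered pairs across the tissues were at -0.164 to 0.0560, so numbers 2 and 3 lay little above the highest of these. At 566 dyads with genotype-like levels the pairs numbered 1 and 4 agreed at 97.0% and 94.9%, and all 26 other pairs at 25.3% to 36.2%. The labels do not say that numbers mark animals. The main model and the SEs took the 8 libraries as independent. The block over all 4 numbers also joined the pairs numbered 2 and 3, which did not agree in this way. A replicate block over all 4 numbers called 605 tiles (17.8%, against 12.97% of all tested tiles), and a block for numbers 1 and 4 only 553 (16.3% against 12.04%). With the block over all numbers 2684 of the 17000 tested dyads of these tiles were called, and the share over all tested dyads was not counted. Of the 63 called tiles the block over all numbers ended 0 calls and the block for numbers 1 and 4 ended 2, at Zfp36l2 and C8h11orf65.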
